A study of Mus musculus with 6 samples.

Results

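Cytosolic ribosomal protein genes encode the proteins that, together with ribosomal RNA, build the small (40S) and large (60S) subunits of the ribosome outside mitochondria. They were taken from the deposited table by symbol: Rpl or Rps followed by a digit, plus Rpsa, Rplp0, Rplp1 and Rplp2, leaving out rows marked as pseudogenes by "-ps" and the S6 kinases (Rps6k). This gave 89 of 17784 genes. Of these, 77 encode a standard protein of the ribosome (46 of the large and 31 of the small subunit), 10 are paralog copies such as Rpl3l or Rps27l, and 2, Rps19bp1 and Rps23rg1, match the symbol pattern but were not counted as ribosomal proteins. The rule uses symbols and no measured value, but it was chosen with earlier results of these data known.

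Bulk RNA-seq profiled the corneal epithelium of 3 Ptch1f/f control samples and 3 Prrx1-CreERT;Ptch1f/f samples, called Ptch1Prrx1 here. Every mouse of both groups carried the floxed Ptch1 alleles, and the labels give an age of 10 weeks, 3 doses of TAM (tamoxifen) and an interval of 2 months. Prrx1-CreERT is a tamoxifen-inducible Cre knocked in at Prrx1 that, according to the study's methods and results, acts in keratocytes, corneal endothelium and other ocular mesenchyme, so recombination was aimed at cells beneath the epithelium and not at the cells sequenced. The epithelium was lifted off with EDTA. The comparison asks how the epithelium differs when the Hedgehog receptor gene Ptch1, which restrains the pathway, is deleted in the cells below it.

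Ribosomal proteins are needed in near equal numbers, and their mRNAs are among the most abundant of most cells. In mammals most of these mRNAs begin with a 5′ terminal oligopyrimidine (TOP) stretch, a C followed by a run of C and T, through which mTOR and LARP1 adjust their translation. Their amount as mRNA and their use by ribosomes can therefore move separately, and RNA-seq measures only the first. In the corneal epithelium, which renews from limbal stem cells throughout life, ribosome production is part of the growth of basal cells.

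The start of the mRNA is shown first, because it carries the feature that sets the family apart. RefSeq promoter windows (GRCm38.p6, 250 bases before to 50 after each annotated start) matched 69 of the 89 genes, with 81 windows in all. Each sequence runs from 10 bases before the annotated start to 20 from it, 5′ to 3′ on the gene's strand, and the capitals mark the unbroken run of C and T that begins with C at the annotated start. Rps21 is shown as the standard gene with the lowest log2 fold change, Rplp2 as a stalk protein, Rpl35 for its long run, and Rps6 and the Rps27 pair because the table lists a copy beside each, as described further on.
Rps21 (chr2:180257369-180257398, plus strand): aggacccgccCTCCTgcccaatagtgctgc
Rplp2 (chr7:141447641-141447670, plus strand): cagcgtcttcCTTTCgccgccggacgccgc
Rpl35 (chr2:39005112-39005141, minus strand): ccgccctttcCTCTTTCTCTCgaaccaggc
Rps6 (chr4:86857348-86857377, minus strand): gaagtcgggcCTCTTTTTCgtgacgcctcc
Rps27 (chr3:90213629-90213658, minus strand): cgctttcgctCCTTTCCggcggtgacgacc
Rps27rt (chr9:114982720-114982749, minus strand): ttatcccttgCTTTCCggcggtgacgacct
The run was 5 bases in Rps21 and Rplp2, 9 in Rps6 and 11 in Rpl35. Rps27 and its retrotransposed copy Rps27rt shared an unbroken stretch of 19 bases, which began at the annotated start of Rps27rt and 1 base after that of Rps27.

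A TOP run of at least 5 bases at the annotated start was present in 15 of the 81 windows (18.5%), against 2.51% of all 32851 windows in the RefSeq table. The count depends on the exact base annotated as the start. The sequence CCGGAAG, a core bound by ETS family factors, was found on either strand in 27 of the 81 windows (33.3%), against 8.86% of all windows. CACGTG, the E-box core recognised by MYC among others, was found in 8 windows (9.88%), against 7.15% of all. TOP and CCGGAAG occurred together in 8 windows and overlapped in 0 of them, and CCGGAAG and CACGTG cannot overlap by their letters. Rpl11 and Rpl31 are shown with CCGGAAG in capitals, within the bases around the start.
Rpl11 (chr4:136053374-136053403, minus strand): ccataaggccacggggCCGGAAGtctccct
Rpl31 (chr1:39367841-39367870, plus strand): tcctcgcctccccgtgacCCGGAAGttgta

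The ribosomal protein genes did not pass the test in either direction in Ptch1Prrx1 epithelial cells. Of the 89 genes, 85 passed edgeR's filter on low counts, including all 77 standard ones. At an adjusted p of at most 0.05 (edgeR's quasi-likelihood test, Benjamini-Hochberg over 12999 genes), 0 of the 85 were called higher, against 7.61% of all genes tested, and 0 were called lower, against 6.41%. With a fold change of at least 2 as a second requirement, the thresholds in the study's methods, 0 of 85 were called, against 3.23% of all genes. For its keratocyte genes, the study's results state the p threshold without calling it adjusted. At an unadjusted p under 0.05, 3 of the 85 passed, all with lower values in Ptch1Prrx1, against 16.5% of all genes in that direction and 33.5% in either. This count was 9 without Ptch1Prrx1 replicate 1, 5 without control replicate 3, 1 without control replicate 1, 9 with total counts and 10 with limma on log2(TPM + 1). The 16.5% and 33.5% belong to the edgeR test above, and the share of all genes under these other settings is not given. DESeq2 and limma-voom also called 0 of 85, and limma on log2(TPM + 1) called 1, Rps27l.

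The estimates lay close to 0. The median log2 fold change of the 85 genes was -0.067, and that of all 12999 genes was -0.0099. The estimate was below 0 for 62 of 85 (72.9%), against 51.5% of all genes. Among the 77 standard genes the log2 fold change ranged from -0.24 (Rps21) to 0.24 (Rpl36), and the estimate was within 1.25-fold of equality for 84 of the 85, the exception being Rpl3l. The 95% interval of the difference lay within 2-fold in either direction for 83 of 85 genes, within 1.5-fold for 80 and within 1.25-fold for 38. The 5 genes whose interval passed 1.5-fold were Rpl3l, Rps6, Rpl34, Rps27rt and Rpl36.

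**Figure D1:**
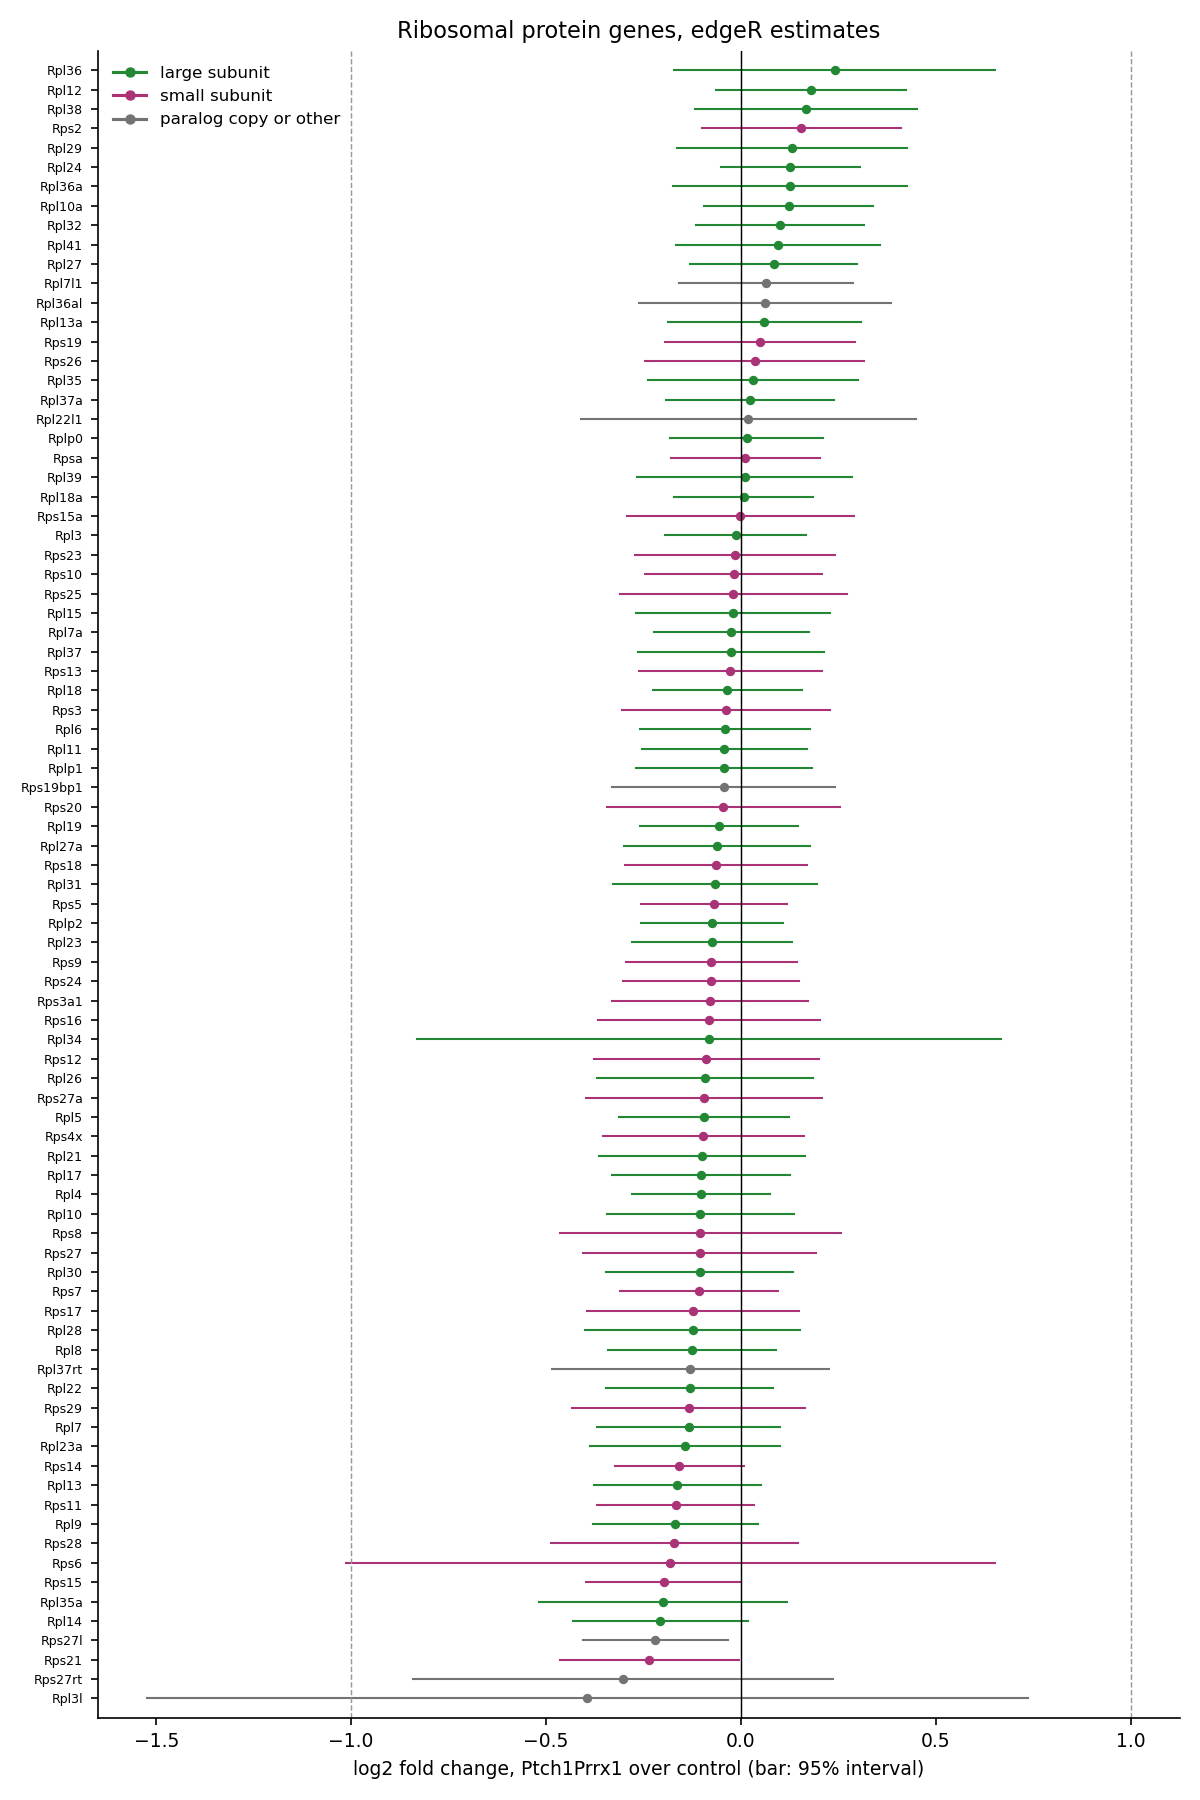
The log2 fold change of Ptch1Prrx1 over control (x axis) for each of the 85 genes tested (y axis, ordered by estimate), with bars for the 95% interval and dashed lines at 2-fold. Estimates of the standard genes lay between -0.24 and 0.24, and the widest intervals belonged to Rpl3l, Rps6 and Rpl34.

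The sign of this small shift changed when 1 library, control replicate 1, was left out. Without control replicate 1 the median log2 fold change was 0.011, with 34 of 85 estimates below 0, and without Ptch1Prrx1 replicate 1 it was -0.13, with 76 below 0. With both of these samples left out it was -0.061. The other choices of normalization and filter gave medians from -0.061 to -0.12, each below 0.

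As a share of the total, the mRNA of the 89 genes held between 9.58% and 11.3% of the transcripts in every sample. TPM, the transcript abundance that RSEM scales to the same total in each sample, corrects for gene length, so summed TPM estimates a share of mRNA molecules. The 89 genes held 11.3%, 10.1% and 10.1% of total TPM in control replicates 1, 2 and 3, and 10.4%, 9.64% and 9.58% in Ptch1Prrx1 replicates 1, 2 and 3. The means were 10.5% ± 0.700 and 9.86% ± 0.440 (SD, n = 3 each), a difference of -0.619 percentage points (two-sided exact permutation test, p = 0.3, where 0.1 is the smallest p that 3 against 3 allows). The groups overlapped, since Ptch1Prrx1 replicate 1 lay above control replicates 2 and 3. With the 10 most abundant other genes, led by Krt12, left out of the total, the difference was -1.01 percentage points (exact permutation p = 0.1). With this total the groups did not overlap, since that smallest p is reached only then. For the share of the full total, the difference without control replicate 1 was -0.215 percentage points. Of total expected counts, the 89 genes held 3.54% ± 0.275 in control and 3.32% ± 0.208 in Ptch1Prrx1 samples (SD, n = 3 each, exact permutation p = 0.4). The 3 pseudogene rows left out by the rule held a further 0.234% and 0.240% of TPM in the respective groups. In bulk RNA, fewer cells of a type and less of this mRNA per cell cannot be told apart.

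For neither subunit did the share separate the groups. Large-subunit genes held 6.24% ± 0.398 of TPM in control and 5.94% ± 0.220 in Ptch1Prrx1 samples (SD, n = 3 each, exact permutation p = 0.4). Small-subunit genes held 4.08% ± 0.293 and 3.78% ± 0.204 (n = 3 each, exact permutation p = 0.3). The ratio of large to small was 1.53 ± 0.0220 in control and 1.57 ± 0.0322 in Ptch1Prrx1 samples (n = 3 each, exact permutation p = 0.2), and the groups overlapped. The 10 paralog copies together held 0.158% and 0.140% of TPM in the respective groups.

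**Figure D2:**
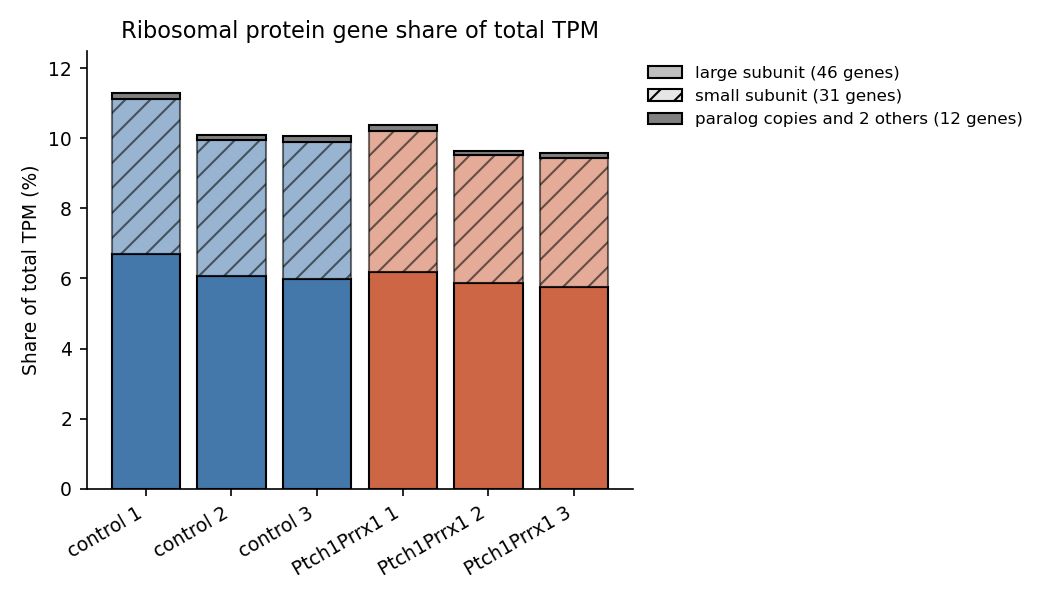
Share of total TPM in percent (y axis) in each of the 6 samples (x axis), stacked as large-subunit genes, small-subunit genes and the 12 remaining genes, with controls in blue and Ptch1Prrx1 in orange. The total was highest in control replicate 1 at 11.3% and lowest in Ptch1Prrx1 replicate 3 at 9.58%.

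The genes shared an order of samples within each group. Control replicate 1 had the highest normalized count of the 3 controls for 82 of 85 genes, whereas it was highest for 35.3% of all genes tested. The exceptions were Rpl36al, Rps27l and Rpl3l. Ptch1Prrx1 replicate 1 was the highest of its group for 78 of 85 genes, against 40.9% of all genes. Relative to each gene's control mean on the log2 CPM scale (counts scaled to library size), the median of the 85 genes was 0.15, -0.061 and -0.087 in control replicates 1, 2 and 3. It was 0.087, -0.10 and -0.16 in Ptch1Prrx1 replicates 1, 2 and 3. The pooled SD over samples of the median log2 CPM of these genes was 0.14, beside a median log2 fold change of -0.067. The median coefficient of variation within a group was 9.37% in control and 9.81% in Ptch1Prrx1 samples, against 7.95% and 9.86% for all genes.

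Part of this order was shared by other genes with short transcripts. The expected count per unit of TPM grows with a gene's effective length, and 79 of the 85 genes lay in the lowest quartile of that ratio. The 3171 other genes in that quartile had median deviations of 0.033, -0.0013 and -0.034 in control replicates 1, 2 and 3, and 0.0095, -0.046 and -0.056 in Ptch1Prrx1 replicates 1, 2 and 3. Their median log2 fold change was -0.042, and that of the 3249 other genes in the highest quartile was 0.029. The role of transcript length in the ribosomal protein values was not tested.

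**Figure D3:**
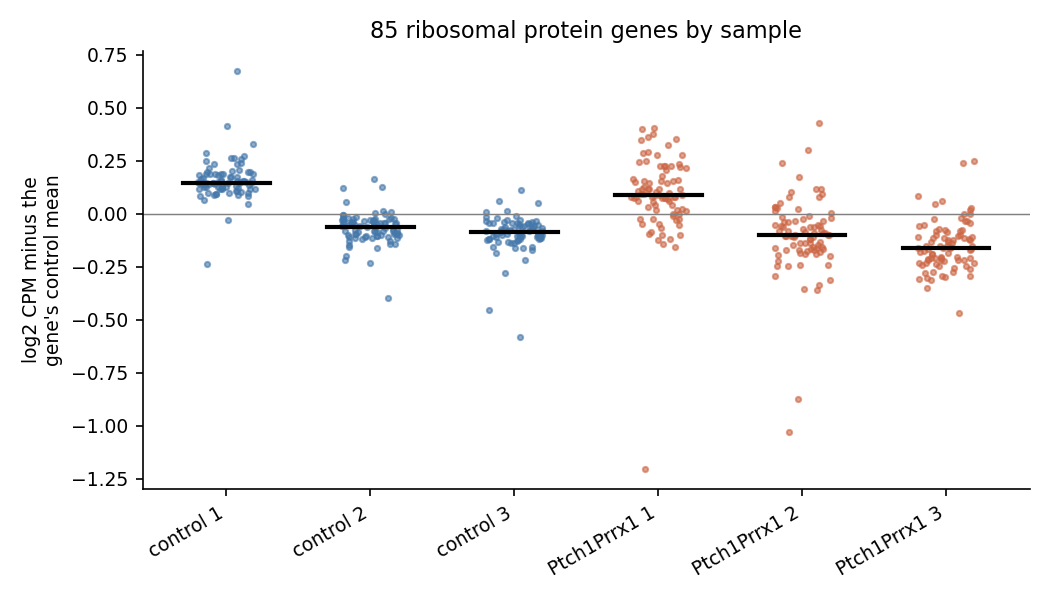
Deviation of each of the 85 genes from its own control mean in log2 CPM (y axis) in each sample (x axis), 1 point per gene, with the median as a black line. The medians of the samples numbered 1 lay above 0 in both groups (0.15 and 0.087) and those of the other 4 samples below 0.

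The large subunit carries the peptidyl transferase centre, the exit tunnel and the stalk. Of its 46 standard genes, 30 had an estimate below 0, with a median log2 fold change of -0.043. That median was 0.032 without control replicate 1 and 0.0056 without Ptch1Prrx1 replicate 3. It was -0.11 without Ptch1Prrx1 replicate 1 and -0.029 with both samples numbered 1 left out. The stalk recruits the elongation factors and is built from Rplp0, which anchors it, and the acidic proteins Rplp1 and Rplp2. Rplp0 had 35434, 32602 and 31148 normalized counts (counts scaled to a common library size) in the controls and 35776, 32157 and 32294 in Ptch1Prrx1 samples. The groups overlapped throughout, with a log2 fold change of 0.015 that was below 0 under total-count scaling. Rplp1 and Rplp2 had log2 fold changes of -0.043 and -0.074, with standard errors of 0.097 and 0.078. By TPM, Rplp0 and Rplp1 were among the 5 most abundant ribosomal protein genes, at 2669 ± 98.1 and 2686 ± 183 TPM in control samples (SD, n = 3), while Rplp2 had 1385 ± 79.8 TPM.

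Rpl5 and Rpl11 bind the 5S rRNA, and the free complex can bind and inhibit Mdm2, the ubiquitin ligase of p53. Rpl5 had 15478, 13393 and 12900 normalized counts in controls and 14001, 12915 and 12215 in Ptch1Prrx1 samples (log2 fold change -0.094, SE 0.093). Rpl11 had 9776, 9200 and 8727 in controls and 9758, 9136 and 7998 in Ptch1Prrx1 samples (log2 fold change -0.043, SE 0.091). For both genes the groups overlapped. Rpl10a and Rpl38, large-subunit proteins known for unequal effects on the translation of particular mRNAs, had log2 fold changes of 0.12 (SE 0.093) and 0.17 (SE 0.12). Rpl38 showed the spread behind such values, with 2112, 1852 and 1857 normalized counts in controls and 2372, 2385 and 1780 in Ptch1Prrx1 samples.

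At the ends of the large-subunit order stood Rpl36 and Rpl14, named after their values were seen. Rpl36 had 2871, 2487 and 1669 normalized counts in controls and 2913, 2697 and 2695 in Ptch1Prrx1 samples. Its log2 fold change of 0.24 (SE 0.18) went with 1 low control, replicate 3. Rpl14 had 9156, 8120 and 7633 in controls and 7914, 7009 and 6661 in Ptch1Prrx1 samples, a log2 fold change of -0.21 (SE 0.097, edgeR adjusted p = 0.179). Rpl13, the most abundant of the family at 3262 ± 254 TPM in control and 2838 ± 67.9 TPM in Ptch1Prrx1 samples (SD, n = 3 each), had a log2 fold change of -0.16.

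The small subunit holds the decoding centre and binds the mRNA. Of its 31 standard genes, 27 had an estimate below 0, with a median log2 fold change of -0.078. Without control replicate 1, the median was 0.0030 and 18 estimates were above 0. Without Ptch1Prrx1 replicate 1, it was -0.16 and 1 estimate was above 0. With both samples numbered 1 left out, it was -0.093 and 9 were above 0. The 3 genes with an unadjusted p under 0.05 were Rps21, Rps15 and the paralog Rps27l, all of the small subunit and the first 2 named after their values were seen.

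Rps21 (gene 66481) had 3070, 2478 and 2482 normalized counts in controls and 2416, 2253 and 2153 in Ptch1Prrx1 samples. The groups did not overlap, but Ptch1Prrx1 replicate 1 lay only just below the 2 lower controls. The log2 fold change was -0.24 (SE 0.099, edgeR adjusted p = 0.142). Rps15 (gene 20054), a protein whose tail reaches the decoding site, had 10813, 9996 and 9197 in controls and 9208, 8821 and 8122 in Ptch1Prrx1 samples, and the groups met at their edges. Its log2 fold change was -0.20 (SE 0.085, edgeR adjusted p = 0.149).

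The groups did not overlap, in the lower direction, for 3 of the 85 genes, against 20.3% of all genes tested. They were Rps21, Rps27l and Rps14. Rps14 (gene 20044) had 8360, 7893 and 7753 normalized counts in controls and 7340, 7476 and 6694 in Ptch1Prrx1 samples (log2 fold change -0.16, SE 0.071, edgeR adjusted p = 0.165). In the higher direction, 0 of 85 had groups that did not overlap, against 19.7% of all genes.

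Rps19, the gene most often mutated in Diamond-Blackfan anaemia, had 3996, 3310 and 3487 normalized counts in controls and 4201, 3444 and 3522 in Ptch1Prrx1 samples. Its groups overlapped (log2 fold change 0.049, SE 0.10). Rpsa, a small-subunit protein also known as the laminin receptor, had a log2 fold change of 0.012 (SE 0.082), below 0 under total-count scaling. Rps26, one of the 5 most abundant members at 2565 ± 268 TPM in control and 2556 ± 177 TPM in Ptch1Prrx1 samples, had a log2 fold change of 0.035, also below 0 under total-count scaling.

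Conservation did not separate the genes. The 33 proteins found in bacteria, archaea and eukaryotes had a median of -0.068 on the log2 scale, and the 44 others -0.062. The 14 tested genes with a TOP run at an annotated start had a median of -0.090, and the 51 with a window but no such run -0.043. The 25 with CCGGAAG had a median of -0.043 and the 40 without it -0.075. The genes shared an order of samples, so the standard error per gene (median 0.10) does not measure the spread of these medians. They are given as descriptions.

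Paralog copies can replace a standard protein in some tissues. Rpl3l, the striated muscle form of Rpl3, had 8, 11 and 11 normalized counts in controls and 3, 7 and 12 in Ptch1Prrx1 samples, whereas Rpl3 had 15023, 13494 and 13616 and then 14812, 13646 and 13302. Rpl22l1 stood at 94.2 ± 6.27 TPM in control and 92.5 ± 21.9 TPM in Ptch1Prrx1 samples (SD, n = 3 each), with Rpl22 at 249 ± 16.3 and 220 ± 8.14 TPM. Rpl36al had 310 ± 15.2 and 314 ± 52.7 TPM, and Rpl36a 717 ± 34.5 and 759 ± 103 TPM. Rpl7l1, which acts in assembly of the large subunit, had a log2 fold change of 0.064 (SE 0.096). Each of these copies had overlapping groups.

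Rps27l (gene 67941), a copy of Rps27 known as a p53 target, came nearest to a call. It had 673, 609 and 676 normalized counts in controls and 585, 568 and 529 in Ptch1Prrx1 samples, so every Ptch1Prrx1 sample lay below every control. The log2 fold change was -0.22 (SE 0.080, 95% interval -0.40 to -0.03, edgeR adjusted p = 0.102). It passed the threshold with limma on log2(TPM + 1), at an adjusted p of 0.0423, and with a pseudocount of 0.1, at 0.0434. Rps27 itself had 3984, 2833 and 3263 in controls and 3101, 3402 and 2867 in Ptch1Prrx1 samples, with a log2 fold change of -0.11 (SE 0.13).

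The 4 genes that were not tested were nearly silent, with at most 26 counts in any sample. Rpl10l, a testis form of Rpl10, had 0 counts in every control and 1, 2 and 0 rounded counts in Ptch1Prrx1 samples. Rpl39l, also a testis form, had 4, 0 and 26 in controls and 7, 1 and 7 in Ptch1Prrx1 samples. Rpl32l had from 2 to 5 counts in every sample. Rps23rg1 had 11, 9 and 5 in controls and 3, 4 and 1 in Ptch1Prrx1 samples. A total of 3 counts in a sample equals 0.145 to 0.148 CPM here, and this limit reflects counting error alone. Rps19bp1, which encodes a regulator of Sirt1 and was tested, had 26.1 ± 2.47 and 24.7 ± 0.363 TPM.

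For several members the table also lists a copy, named as a pseudogene or retrotransposed copy of the gene. Reads that fit more than 1 gene are split by RSEM, and the counts of gene and copy were compared as listed, since neither the sequence identity of the pairs nor the assignment of reads was examined. Rps6, the classical substrate of S6 kinase, was listed at only 26.5 TPM over all samples, the lowest of the standard genes. The row Rps6-ps4 held 96.9% to 98.7% of the counts of the pair in the 6 samples. Rps6 alone had 466, 392 and 233 normalized counts in controls and 427, 170 and 364 in Ptch1Prrx1 samples (log2 fold change -0.18, SE 0.36). The pair summed to 15122, 13496 and 12576 expected counts in controls and 15111, 12960 and 12910 in Ptch1Prrx1 samples, and the log2 fold change of the sum was 0.044 (SE 0.11). The estimate for Rps6 thus changed sign and its standard error fell when the rows were added.

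For Rpl34 the split between rows varied between samples. In control replicate 1 and Ptch1Prrx1 replicate 2, the row Rpl34-ps1 held 0.694% and 0.227% of the pair's counts. In the other 4 samples it held 40.8% to 48.1%. Rpl34 alone therefore had 3691, 1756 and 1901 normalized counts in controls and 2166, 3105 and 1672 in Ptch1Prrx1 samples, with a standard error of 0.32 on its log2 fold change of -0.082. The sums were 3740, 3018 and 3430 expected counts in controls and 3929, 3033 and 3238 in Ptch1Prrx1 samples. Their log2 fold change was 0.054 (SE 0.12). The low and high values of Rpl34 went with the split of counts between rows and not with the group.

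For the other 3 pairs the split was steadier. Rps27rt held 29.1% to 34.1% of the counts summed with Rps27 in 5 samples and 19.5% in Ptch1Prrx1 replicate 2. The log2 fold change of -0.30 for Rps27rt alone (SE 0.23) compared with -0.16 (SE 0.12) for the sum. Rpl31-ps12 held 13.4% to 15.4% of its pair, and the sum with Rpl31 had a log2 fold change of -0.067. Rpl37rt held 52.8% to 63.5% of its pair, and the sum with Rpl37 had a log2 fold change of -0.088. Summing all 5 pairs gave 0 calls and a median log2 fold change of -0.061 over the 83 genes then tested.

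**Figure D4:**
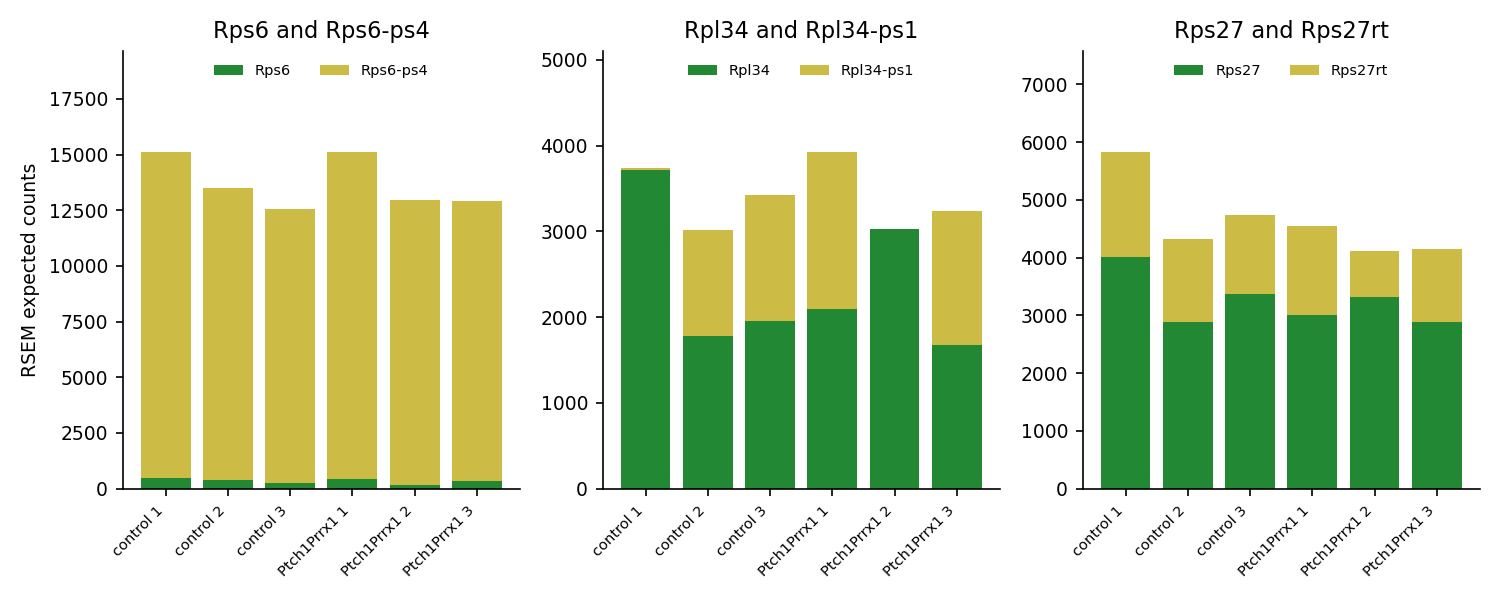
RSEM expected counts (y axis) in each sample (x axis) of 3 genes (green) with the listed copy stacked above (yellow). Rps6-ps4 took at least 96.9% of its pair in every sample, whereas Rpl34-ps1 took under 1% in control 1 and Ptch1Prrx1 2 and over 40% in the other 4.

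Levels per length were high and the order was shared between groups. The 77 standard genes had a median of 1326 TPM over the 6 samples, against 18.4 TPM for all genes tested, with quartiles at 757 and 1642 TPM. Of the 77, 65 lay between 500 and 2500 TPM. The 5 most abundant were Rpl13, Rplp0, Rpl23a, Rplp1 and Rps26, and the 5 lowest tested genes were Rpl3l, Rps19bp1, Rps6, Rpl7l1 and Rps15a. Across the 77 genes the group means had a Spearman correlation of 0.991, a description over genes measured in the same 6 libraries. Rps15a stood at 74.9 ± 7.05 TPM in control samples although it had 4119, 3402 and 3297 normalized counts. It had 48.7 counts per unit of TPM, against a median of 6.51 for the standard genes, the highest ratio of the standard genes.

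Outside the symbol rule, 3 further tested genes encode ribosomal proteins, Fau and Rack1 among them. The median log2 fold change of the 3 was -0.048, with 0 above 0, and it was 0.016 without control replicate 1. Fau and Rack1 had log2 fold changes of -0.13 and -0.0013 (SE 0.10 and 0.079). By edgeR's quasi-likelihood test 0 of the 3 were called, and 0 passed an unadjusted p under 0.05. Of 22 other tested genes with a TOP mRNA, such as Eef1a1, Eef2 and Tpt1, 0 rose and 0 fell, against 7.61% and 6.41% of all genes, and the list median was -0.025 on the log2 scale (0.010 without control replicate 1, -0.092 without Ptch1Prrx1 replicate 1). At an unadjusted p under 0.05, 2 of these 22 passed, against 33.5% of all genes.

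The genes that assemble ribosomes had estimates mostly above 0. Of 43 tested 60S assembly factors, 36 were above 0 (median log2 fold change 0.13), and of 50 tested 40S assembly factors, 38 were (median 0.11). Across all genes the estimate was below 0 for 51.5%. Over the 20 alternatives tried, the 60S median ranged from 0.087 to 0.15. The 40S median ranged from 0.063 with total counts to 0.14, and was 0.068 without Ptch1Prrx1 replicate 1 and 0.069 without control replicate 3. In the 60S list 4 genes rose and 0 fell, and in the 40S list 2 rose and 1 fell, against 7.61% of all genes called higher and 6.41% called lower.

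Among the 60S factors, Rrs1, which helps to bring the 5S complex into the subunit, had 432, 387 and 364 normalized counts in controls and 587, 491 and 530 in Ptch1Prrx1 samples (log2 fold change 0.44, SE 0.10). Nmd3, the export adaptor of the 60S subunit, had a log2 fold change of 0.43 (SE 0.11). Efl1, the GTPase that frees the new subunit from Eif6, had 465, 486 and 510 normalized counts in controls and 653, 641 and 662 in Ptch1Prrx1 samples (log2 fold change 0.42, SE 0.071, edgeR adjusted p = 0.0150). For these 3 genes every Ptch1Prrx1 sample lay above every control. Of 12 alternatives with all samples, each of the 3 lost its call in 1, and with each of the 6 samples left out in turn Nmd3 lost it in 6, Rrs1 in 4 and Efl1 in 1.

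Among the 40S factors, Noc4l and Heatr1, which act in early processing of the small-subunit RNA, rose with log2 fold changes of 0.49 (SE 0.086) and 0.32 (SE 0.087). Tsr2, the escort of Rps26 into the pre-40S particle, fell, from 247, 231 and 247 normalized counts in controls to 186, 191 and 184 in Ptch1Prrx1 samples (log2 fold change -0.37, SE 0.094, edgeR adjusted p = 0.0415). The calls of Heatr1 and Tsr2 were marginal. Heatr1 was not called in 7 of the 12 alternatives with all samples (adjusted p from 0.0510 to 0.162) or in 5 of the 6 with a sample left out. Tsr2 was not called in 6 of the 12 (adjusted p from 0.0529 to 0.105, DESeq2 among them at 0.0706) or in any of the 6 with a sample left out. Noc4l kept its call in all 12 and lost it in 2 of the 6.

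The core proteins of small nucleolar RNPs and the nucleolus had a median of 0.19 on the log2 scale over 19 genes, 13 of them above 0, and the median was 0.10 without Ptch1Prrx1 replicate 1. By edgeR 0 were called, against 7.61% of all genes called higher and 6.41% lower, with 7 at an unadjusted p under 0.05 (33.5% of all genes passed that). DESeq2 called 3 of the list higher, and over all genes it called 1417 higher, where edgeR called 989. Npm1, a nucleolar chaperone, had 2411, 2039 and 2268 normalized counts in controls and 4906, 2670 and 2695 in Ptch1Prrx1 samples, where replicate 1 stood well above the other 2. Its log2 fold change was 0.61 (SE 0.23, edgeR adjusted p = 0.111). Of 15 tested RNA polymerase I genes, 0 were called either higher or lower, against 7.61% and 6.41% of all genes, and 4 had an unadjusted p under 0.05, against 33.5%. Their median was 0.020 and ranged from -0.057 without control replicate 3 to 0.079 without Ptch1Prrx1 replicate 3. Npm1 was named after its values were seen.

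Translation factors were called in both directions, where 7.61% of all genes were called higher and 6.41% lower. Among 38 initiation factors, Eif5 and the scaffold Eif4g3 rose, with log2 fold changes of 0.42 (SE 0.11) and 0.30 (SE 0.057), and the helicase Eif4a2 fell (-0.39, SE 0.084). Among 12 elongation and termination genes, Eef2k, the kinase that inactivates Eef2, fell from 3027, 3059 and 2826 normalized counts in controls to 1770, 2440 and 1987 in Ptch1Prrx1 samples (log2 fold change -0.52, SE 0.12). Among 14 factors at the exit tunnel, Btf3l4 fell (-0.37, SE 0.078). Eif5 was not called in 5 of the 12 alternatives with all samples (adjusted p from 0.0502 to 0.0659) or in any of the 6 with a sample left out, and Eif4g3 was not called in 3 of the 12 (0.0703 to 0.0862) and 3 of the 6. Eif4a2 and Eef2k each lost their call in 1 of the 12 and 4 of the 6, and Btf3l4 in 0 of the 12 and 4 of the 6. The initiation median was 0.053, and 0.0051 with total counts. The elongation median was -0.049, and 0.0040 without control replicate 1. The exit tunnel median was 0.024, but -0.025 with total counts and -0.024 without Ptch1Prrx1 replicate 1. Without control replicate 2, 0 of the 23 called genes in all related lists together passed the threshold, and the calls over all genes were then 68 higher and 25 lower in place of 989 and 833.

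**Figure D5:**
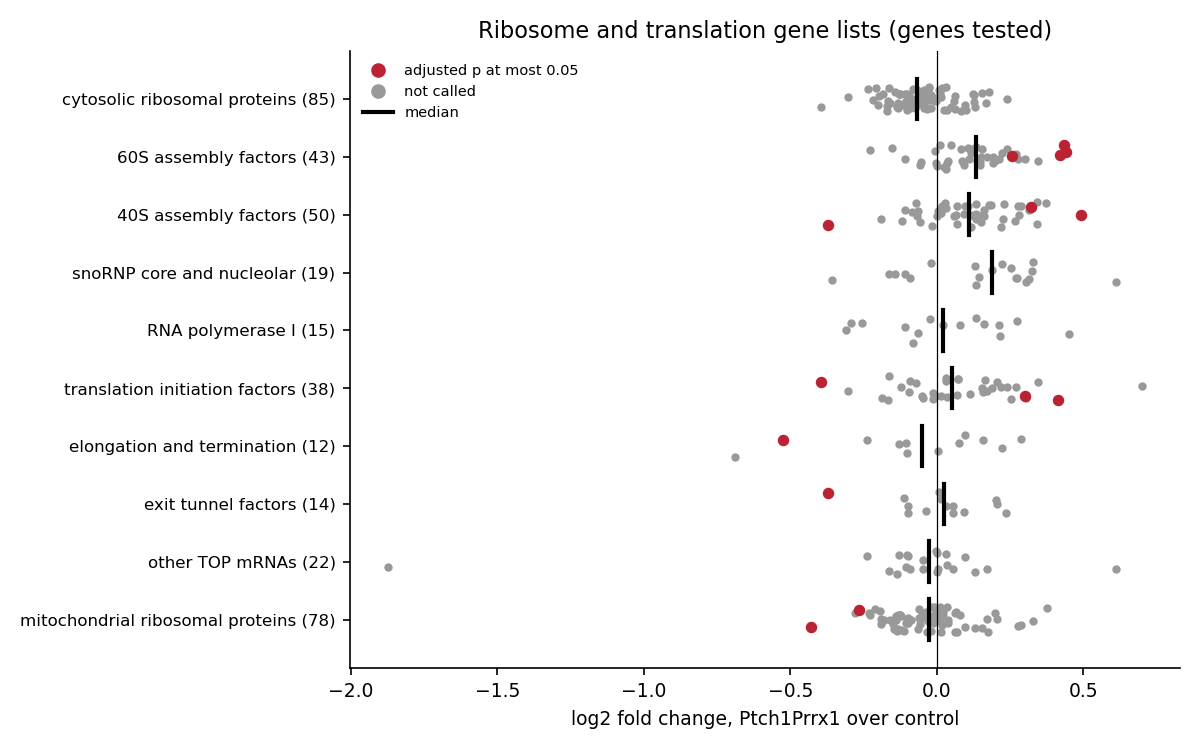
Log2 fold change (x axis) of every tested gene in the ribosomal protein set and 9 related lists (y axis, genes tested in brackets), with called genes in red and each median as a black line. The ribosomal protein genes lay in a narrow band with a median of -0.067 and 0 calls, and the 60S and 40S assembly lists had medians of 0.13 and 0.11.

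Facts of the libraries bear on these values as follows. Expected counts summed to between 20296741 and 20625813 per sample, and replicates within a group were further apart than sampling noise (chi-square of 8.56 to 31.5 per degree of freedom over all such pairs). Ptch1 had 619 ± 89.6 normalized counts in control and 435 ± 41.5 in Ptch1Prrx1 samples (SD, n = 3 each, log2 fold change -0.51, edgeR adjusted p = 0.0401). On the first principal component (58.1% of the variance) Ptch1Prrx1 replicate 1 lay at 51.7 and the other 2 at 18.3 and 19.1. The 8 corneal epithelium markers summed to 105269 to 113601 TPM in control and 93291 to 115373 TPM in Ptch1Prrx1 samples, and 1 of them, Krt14, rose (log2 fold change 2.81, SE 0.34). The 3 conjunctiva markers summed to 1384 to 2309 TPM in control and 2174 to 4667 TPM in Ptch1Prrx1 samples. The 7 keratocyte markers summed to 1.74 to 29.5 and 2.66 to 4.49 TPM, the 5 immune markers to 8.54 to 14.7 and 4.71 to 12.6 TPM, the 3 corneal endothelium markers to 24.0 to 27.7 and 25.9 to 29.9 TPM, and the 2 vessel markers to at most 0.32 TPM. The part of other cell types in the ribosomal protein values was not tested.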

How the data were processed

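Corneal epithelial RNA was sequenced in 3 control and 3 Ptch1Prrx1 samples, which the study calls biological replicates, and groups and replicate numbers came from the labels. Per the labels and the submitters' processing notes, the authors aligned reads with Bowtie2 2.2.5 (build mm9) and quantified genes with RSEM 1.2.12. The labels name a TruSeq kit, and the methods describe rRNA depletion and nanoball sequencing. The authors deposited expected counts (estimated, not scaled for depth, 39.4% of values above 0 not whole) and TPM (scaled for length and depth). The deposited FPKM values and group averages were not used, and 0 columns of other samples were used. RSEM splits reads that fit several genes, which can affect genes with copies.

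Expected counts were rounded, filtered with filterByExpr and fitted over all 12999 genes with edgeR 4.0.16 (R 4.3.3; TMM factors, quasi-likelihood test, Benjamini-Hochberg). Replicate numbers were not used as a block, since deviations of same-numbered samples over all genes correlated at 0.105, -0.014 and 0.019. That reason does not cover the members alone. The samples numbered 1 were the highest of their group for 82 and 78 of 85 members. With the block, 12 members had an unadjusted p under 0.05 in place of 3 (edgeR). Normalized counts are TMM-scaled. Standard errors are the absolute log2 fold change over the square root of F, and intervals are 95%. TPM shares were compared with two-sided exact permutation tests. Promoter windows were RefSeq's (GRCm38.p6), and among several windows of a gene the one with the motif was shown. The procedure was tested on simulated data whose changes were larger than any estimate of a member here. Recovery of shifts of the size seen here was not tested.

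The members, gene lists and rules were chosen with earlier results of these data known. Members named whatever their values were Rpsa, the stalk, Rpl5, Rpl11, Rps6, Rps19, Rpl38, Rpl10a, paralog copies with their parents and untested members. The 5 highest and lowest by TPM and at most 3 called genes per list and direction were also named. Rps21, Rps15, Rps14, Rpl14, Rpl36, Rpl34, Rpl31, Rps27rt, Rpl37rt, Npm1 and the genes without calls that illustrate a list were named outside the rule. Rpl37rt, Rpl32l and Rps23rg1 were given their class after the table was seen. Alternatives were DESeq2 1.42.0, limma-voom and limma 3.58.1 on log2 TPM, other factors, filters and thresholds, a replicate block and each sample left out. Summed copies and leaving out both samples numbered 1 were added after seeing the data. Some genes of the lists are not reported here.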

Additional observations from a re-analysis of the deposited data

How the results depend on the processing

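The precision of a single gene, with a median standard error of 0.10 and 3 samples a group, limited what could be seen. The sign of the median changed when control replicate 1 was left out. With both samples numbered 1 left out it did not change, and the median was -0.061. 0 ribosomal protein genes were called higher, or past 2-fold, in every alternative run. 1 was called lower with limma on log2 TPM at a pseudocount of 1 and of 0.1 (Rps27l), and 3 passed at an unadjusted p under 0.05 (12 with the replicate block, from 1 to 9 with each sample left out). The median log2 fold change of the members changed sign without control replicate 1, ranging from -0.128 to 0.0106 with each sample left out. The shares kept their sign in each alternative. The table lists no gene encoded by mitochondrial DNA, so the share without such genes was not run.

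Calls over all genes were 102 higher and 52 lower at an adjusted p of at most 0.01, 2208 and 2150 at an unadjusted p under 0.05, and 458 and 331 with limma on log2 TPM without a filter. With each sample left out they ranged from 68 to 753 higher and from 25 to 572 lower. Of all calls, 54.3% were higher with TMM, 43.9% with total counts, and 73.1% without control replicate 2. Called genes of the related lists numbered 23, and 38 with DESeq2, 35 with the replicate block, 7 with limma on unfiltered log2 TPM, and 0 to 15 with each sample left out. Over all genes DESeq2 called 1417 higher and 1103 lower. The replicate block gave 1042 higher and 850 lower calls over all genes, 0 ribosomal protein genes and a member median of -0.064, and Tsr2 and Mrps33 were no longer called (adjusted p = 0.0655 and 0.0715, edgeR).

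Some uncalled members near 0 changed sign, and the cause was not tested except for summed copies. The log2 fold change of Rps15a was 0.0017 with DESeq2 and RLE factors and 0.0027 with at least 10 counts in every sample. Summed copies gave 0.054 for Rpl34 and 0.044 for Rps6. Total counts gave -0.032 for Rpl22l1, -0.040 for Rpl39, -0.033 for Rplp0, -0.013 for Rps26 and -0.037 for Rpsa. limma on log2 TPM (pseudocount 1, filtered or not) gave -0.050, -0.037, -0.024, -0.0023 and -0.028 for the same genes, and with a pseudocount of 0.1 -0.051, -0.038, -0.024, -0.0023 and -0.028. Rpl22l1 was -0.013 with limma-voom and -0.0076 with the replicate block, and upper-quartile factors gave -0.0029 for Rpl39 and -0.00038 for Rpsa.

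With each sample left out, the log2 fold change ranged from -0.105 to 0.033 for Rpl11, -0.218 to 0.166 for Rpl22l1, -0.057 to 0.036 for Rpl3, -0.141 to 0.040 for Rpl31, -0.355 to 0.339 for Rpl34, -0.027 to 0.221 for Rpl36a, -0.124 to 0.159 for Rpl36al, -0.102 to 0.073 for Rpl37, -0.267 to 0.0027 for Rpl37rt, -0.121 to 0.086 for Rpl39, -0.025 to 0.116 for Rpl7l1, -0.034 to 0.066 for Rplp0, -0.114 to 0.037 for Rplp1, -0.121 to 0.102 for Rps15a, -0.044 to 0.129 for Rps19, -0.123 to 0.045 for Rps19bp1, -0.056 to 0.150 for Rps26, -0.217 to 0.034 for Rps27, -0.440 to 0.119 for Rps6 and -0.041 to 0.059 for Rpsa.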

Other observations

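Genes that report on ribosome control and ribosome faults were measured in the same fit, where 7.61% of all genes were called higher and 6.41% lower. Of 31 genes in mTOR, MYC and LARP1 control, 1 rose and 2 fell at an edgeR adjusted p of at most 0.05, with a median log2 fold change of -0.020 that ranged from -0.067 to 0.031 over the 20 alternatives. Myc, the transcription factor that drives ribosome production, had 702, 658 and 705 normalized counts in controls and 1622, 1222 and 1037 in Ptch1Prrx1 samples, so every Ptch1Prrx1 sample lay above every control (log2 fold change 0.91, SE 0.16). Pdcd4, an inhibitor of the Eif4a helicase, fell from 3923, 4366 and 4149 normalized counts to 2822, 3209 and 2914 (log2 fold change -0.48, SE 0.075). Mlst8, a subunit of both mTOR complexes, fell with a log2 fold change of -0.42 (SE 0.073). Of 12 alternatives with all samples, Mlst8 lost its call in 1, and Myc and Pdcd4 in 0. With each of the 6 samples left out in turn, Mlst8 lost it in 3, and Myc and Pdcd4 each in 1. Larp1 and Mtor, named after their values were seen, had log2 fold changes of -0.027 (SE 0.084) and 0.070 (SE 0.065).

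The counts of calls below stand beside 7.61% of all genes called higher and 6.41% called lower. Of 24 genes of ribosome stalling and quality control, 0 rose and 2 fell (median 0.0024, from -0.046 to 0.020 over the alternatives). They were Ankzf1, which releases chains from stalled ribosomes (log2 fold change -0.46, SE 0.11), and the stress granule protein G3bp1 (-0.32, SE 0.066). Of 14 genes of the p53 branch of the response to impaired ribosomes, 2 rose and 2 fell (median 0.097, but -0.015 without Ptch1Prrx1 replicate 1 and 0.044 without both samples numbered 1). At an unadjusted p under 0.05 (edgeR), 8 of these 14 passed, against 33.5% of all genes. At that p, 6 of the 24 stalling and quality control genes and 8 of the 78 mitochondrial ribosomal protein genes passed. The p53 targets Bbc3 (1.87, SE 0.37) and Mdm2 (0.34, SE 0.088) rose, and Trp53inp1 (-0.44, SE 0.085) and Ccng1 (-0.26, SE 0.059) fell. Bbc3 was low, at 10, 8 and 10 normalized counts in controls and 36, 20 and 45 in Ptch1Prrx1 samples. Mdm2 was not called in 5 of 12 alternatives with all samples (adjusted p from 0.0509 to 0.119) or in 5 of the 6 with a sample left out. Of 78 mitochondrial ribosomal protein genes, 0 rose and 2 fell (median -0.025), Mrpl49 (-0.43, SE 0.087) and Mrps33 (-0.26, SE 0.069). Mrps33 was not called in 6 of the 12 alternatives with all samples (adjusted p from 0.0503 to 0.0848) or in any of the 6 with a sample left out, and Ankzf1 was not called in 3 of the 12 and 4 of the 6. With a sample left out, Ccng1 and Mrpl49 each lost their call in 5 of the 6, G3bp1 in 4, Bbc3 in 3 and Trp53inp1 in 2. With all samples, each of these genes lost its call in at most 1 alternative.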
